A study of Mus musculus with 18 samples.

Results

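Microglia identity genes are the 9 genes P2ry12, Tmem119, Cx3cr1, Csf1r, Trem2, Tyrobp, Siglech, Cd68 and Itgam, taken by symbol from the 58570 gene loci of the deposited expression tables. All 9 were found, each at 1 locus; that of Itgam is joined with the clone-based gene RP23-144N15.3. The RNA came from whole spinal cords of SMNdelta7 mice, a model of spinal muscular atrophy (SMA) in which mouse Smn1 is lost in every cell type while human SMN transgenes are carried. Homozygous (SMA) and heterozygous (control) pups were sampled at postnatal days 2, 6 and 10 (P2, P6 and P10), with 3 libraries in each of the 6 groups. The authors combined the libraries of a group into 1 value, so each level below is the authors' group value in FPKM (fragments scaled to transcript length and to depth), with the interval that they give for it. The labels do not state the sex of the pups, or whether a library came from 1 cord or from several.

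Microglia are the resident macrophages of the central nervous system. They arise from yolk sac precursors, survive on signals through the receptor CSF1R, and in the postnatal cord prune synapses, clear dying cells and support the start of myelination. P2ry12, Tmem119 and Siglech mark the resting parenchymal cell, while Csf1r, Cx3cr1, Tyrobp, Trem2, Cd68 and Itgam are also expressed by other macrophages or by monocytes. Microglia are a small share of the cells of a cord, and in RNA of a whole cord fewer cells of a type and less RNA per cell cannot be told apart.

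Several features of the groups bear on every comparison. Smn1, the gene lost in SMA pups, had 0.0210, 0.00 and 2.82 FPKM in the groups labelled SMA at P2, P6 and P10, against 2.70, 4.46 and 3.54 FPKM in control at the same ages. The group labelled SMA at P10 therefore does not show the loss of Smn1 that its label implies. Mature oligodendrocyte genes (11 measured of 12) summed to 3505, 2052 and 4344 FPKM in the groups labelled SMA at P2, P6 and P10, against 265, 1818 and 7749 FPKM in control. The control group at P2 and the group labelled SMA at P2 thus differed far more in myelin genes than the groups did at P6, and the group labelled SMA at P2 stood above that at P6. Estimated fragments per group totalled 6881671 to 7386338, and the 9 identity genes together held 0.0102% to 0.0134% of them.

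Markers of other blood and border cells ranged from near 0 to the level of the identity genes. Of the lymphocyte and plasmacytoid dendritic cell list, Cd3e, Cd3g, Cd79a, Ms4a1 and Nkg7 were at 0.137 FPKM or less in every group, and only Tcf4, which neurons and glia also express, passed 1 FPKM. The monocyte genes Ccr2 and Ly6c2 reached at most 0.267 FPKM. Of the same list, the neutrophil genes S100a8 and S100a9 were at 1.82 to 4.55 FPKM and Fn1, a matrix protein that vascular cells also make, at 13.4 to 24.5 FPKM. The border macrophage genes Mrc1, Pf4, F13a1, Lyve1 and Stab1 were at 0.577 to 6.83 FPKM. In control at P2, Pf4 (6.83 FPKM) was above Csf1r (4.95 FPKM) and Cx3cr1 (4.22 FPKM), and the border list summed to 22.6 FPKM beside 38.8 FPKM for the 9 identity genes. Among 20 other microglia-enriched genes 18 had a locus of their own, among them Ctss, a lysosomal cathepsin, at 8.21 to 10.7 FPKM.

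Promoter sequence is given for the members whose window holds a match to the box of PU.1, the factor on which the macrophage lineage depends and which is known to drive Itgam in myeloid cells. RefSeq windows (GRCm38.p6) of 250 bases upstream of the start were matched for 6 of the 9 members. GAGGAA, searched on both strands, was present in 3 of these 6, against 23.3% of 32851 windows of all genes. An ETS-IRF composite (GGAA and GAAA spaced by NN), the Runx motif TGTGGT, a Mef2 motif (CTA and TAG spaced by NNNN) and the E-box CACGTG, each searched on both strands, were in 0, 2, 1 and 2 of the 6 windows, against 2.3%, 14%, 3.2% and 6.02% of all windows. GAGGAA or its reverse complement is in capitals in these 3 windows, which lie at chr17:48346151-48346400 (plus strand) for Trem2, chr7:128062390-128062639 (plus strand) for Itgam and chr11:69666171-69666420 (minus strand) for Cd68. A match describes the letters of the window and is not a measured site.
Trem2 promoter: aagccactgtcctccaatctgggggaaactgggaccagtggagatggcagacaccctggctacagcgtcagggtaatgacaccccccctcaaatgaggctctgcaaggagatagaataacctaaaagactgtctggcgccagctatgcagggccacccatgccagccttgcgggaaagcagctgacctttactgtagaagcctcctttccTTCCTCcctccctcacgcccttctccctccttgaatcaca
Itgam promoter: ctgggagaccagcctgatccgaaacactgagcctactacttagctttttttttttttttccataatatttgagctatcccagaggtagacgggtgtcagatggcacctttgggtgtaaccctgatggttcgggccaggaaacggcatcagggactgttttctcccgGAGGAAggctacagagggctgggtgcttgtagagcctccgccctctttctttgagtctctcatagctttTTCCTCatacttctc
Cd68 promoter: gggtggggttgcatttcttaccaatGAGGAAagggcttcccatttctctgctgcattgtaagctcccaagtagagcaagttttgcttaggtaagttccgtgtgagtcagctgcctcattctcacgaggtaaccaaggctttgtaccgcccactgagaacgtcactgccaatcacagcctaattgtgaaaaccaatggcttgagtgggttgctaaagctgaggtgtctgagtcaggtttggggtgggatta

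P2ry12 encodes the ADP receptor with which microglia steer their processes towards injured cells. It lies on the minus strand of chromosome 3 at 59216272 to 59262871 (GRCm38; ENSMUSG00000036353.13), inside Med12l on the other strand, and the authors' span for the locus is shared by 10 loci. It had 14.7, 14.0 and 15.7 FPKM in the groups labelled SMA at P2, P6 and P10, against 11.2, 15.0 and 15.4 FPKM in control at those ages. Only control at P2 stood below the others, and the intervals of all 6 groups overlapped, each with a lower bound of 0. P2ry12 was the most abundant of the 9 genes per length in every group.

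Cx3cr1 encodes the receptor for fractalkine, a ligand displayed by neurons. It lies on the minus strand of chromosome 9 at 119901616 to 120069879 (ENSMUSG00000052336.7), overlaps genes on both strands, and 6 loci share its span. Levels were 5.78, 5.92 and 6.28 FPKM in the groups labelled SMA at P2, P6 and P10, against 4.22, 5.08 and 6.23 FPKM in control. The groups labelled SMA were level across age, control at P2 was again the lowest, and the intervals overlapped.

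Csf1r, the receptor tyrosine kinase for CSF1 and IL-34 that keeps microglia alive, had 6.61, 5.93 and 5.58 FPKM in the groups labelled SMA at P2, P6 and P10. The control values were 4.95, 5.53 and 6.61 FPKM. The values thus ran downwards with age in the groups labelled SMA and upwards in control, by steps smaller than any of the intervals. Csf1r gave the most fragments of the 9 genes in each group, 236 to 318.

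Tmem119, a transmembrane protein of unsettled function found on resident microglia and hardly on blood-derived macrophages, lies on the minus strand of chromosome 5 at 113793729 to 113800516 (ENSMUSG00000054675.5). Its levels were 2.89, 2.09 and 1.83 FPKM in the groups labelled SMA at P2, P6 and P10, against 1.53, 2.28 and 2.75 FPKM in control. The group labelled SMA at P2 was the highest of the 6 groups and control at P2 the lowest. Their intervals still overlapped, at 1.19 to 4.60 FPKM in the group labelled SMA and 0.499 to 2.56 FPKM in control.

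Siglech, a sialic acid-binding lectin that signals through the adaptor DAP12, lies on the plus strand of chromosome 7 at 55768178 to 55778925 (ENSMUSG00000051504.18). It had 2.15, 2.1 and 2.39 FPKM in the groups labelled SMA at P2, P6 and P10, against 1.31, 2.21 and 2.18 FPKM in control. Control at P2 was the lowest group, and the other 5 lay between 2.1 and 2.39 FPKM.

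**Figure D1:**
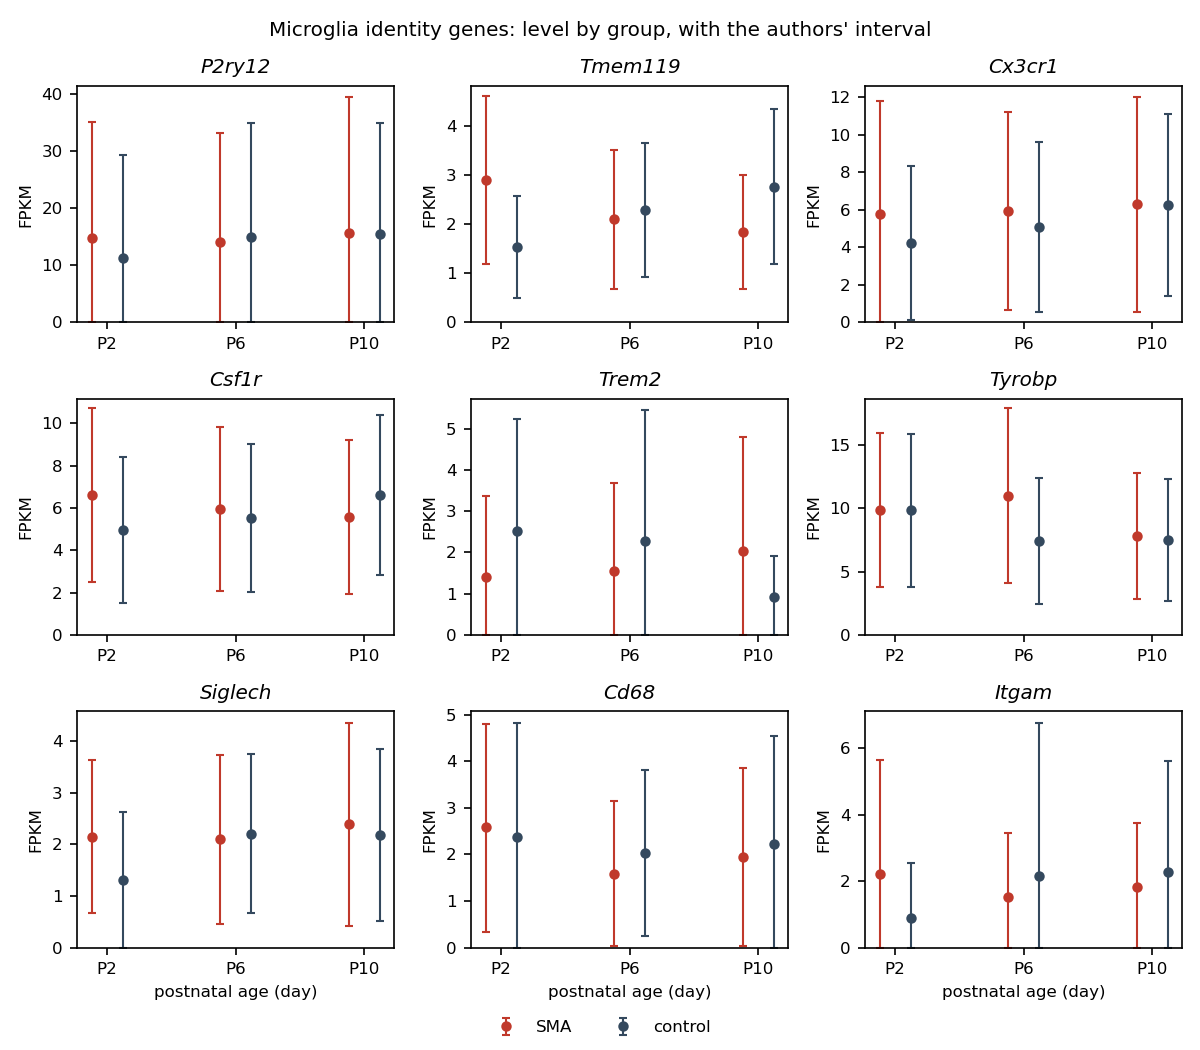
Level in FPKM (vertical axis, linear) of each microglia identity gene by postnatal age. Points are the authors' values for the groups labelled SMA (left of each pair) and control (right), and bars are the authors' intervals. For every gene the bars of all groups overlap, and control at P2 is the lowest point in 6 of the 9 panels.

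Tyrobp encodes DAP12, the signalling adaptor on which TREM2 depends. It lies on the plus strand of chromosome 7 at 30413760 to 30417585 (ENSMUSG00000030579.10). Levels were 9.88, 11.0 and 7.79 FPKM in the groups labelled SMA at P2, P6 and P10, against 9.84, 7.46 and 7.50 FPKM in control. Both groups at P2 and that labelled SMA at P6 lay above the remaining 3, within overlapping intervals. Tyrobp was the second of the 9 genes per length in every group.

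Trem2 encodes the lipid and lipoprotein receptor of microglia that pairs with DAP12 and is needed for phagocytosis of debris. It lies on the plus strand of chromosome 17 at 48346401 to 48354147 (ENSMUSG00000023992.14). Levels were 1.40, 1.56 and 2.04 FPKM in the groups labelled SMA at P2, P6 and P10, against 2.51, 2.27 and 0.912 FPKM in control. Per length the values rank control at P2 highest and control at P10 lowest, and every interval reached 0. The estimated fragments tell the groups apart much less, at 30.8, 30 and 32.2 in the groups labelled SMA and 26.8, 28.5 and 22.5 in control.

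The ratio of the 2 deposited quantities depends on whether a locus is credited to short or long transcripts, since Cufflinks sums FPKM over transcripts that are each divided by their own length. For Trem2 it was 22.0, 19.2 and 15.8 fragments per FPKM in the groups labelled SMA at P2, P6 and P10, against 10.7, 12.5 and 24.6 in control. The highest of these was 2.31 times the lowest. Among 14912 loci at 1 FPKM or more and 10 fragments or more in all groups the median of this range was 1.13-fold. Of these loci 2.23% exceeded 1.5-fold, and 2.31-fold lies at percentile 99.8. For Itgam the range was 1.54-fold (percentile 98.3), and for the other 7 members it was 1.05-fold to 1.24-fold. Trem2 (0.912 FPKM in control at P10) and Itgam (0.882 FPKM in control at P2) themselves fall below the minimum of 1 FPKM. Their percentiles therefore set them against loci that never fell so low, and may overstate how unusual they are. Direction at P2 and at P6 depended on the quantity for Trem2: the log2 ratio of SMA over control was -0.84 and -0.54 from FPKM and 0.20 and 0.07 from fragments.

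GENCODE M21 lists 4 transcripts for Trem2. Among them are a coding transcript of 1088 bases and a retained-intron transcript of 4784 bases, 4.4 times as long. The end of the latter at 48354147 is also the end of the authors' locus. The longer transcript keeps the first intron, 1861 bases at 48346596 to 48348456. The sequences around that junction (chr17:48346566-48346625 for the retained form, plus strand) are shown with the last 30 coding bases of the exon in capitals. They differ by whether the first intron is kept, and a read across the retained form does not by itself identify the longer transcript. Values per transcript were not analysed here, and the part of either transcript in the Trem2 ratios was not tested.
Trem2 intron 1 retained: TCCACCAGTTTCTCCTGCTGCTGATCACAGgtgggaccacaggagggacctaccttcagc
Trem2 intron 1 spliced: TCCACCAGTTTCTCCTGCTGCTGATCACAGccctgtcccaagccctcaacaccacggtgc

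**Figure D2:**
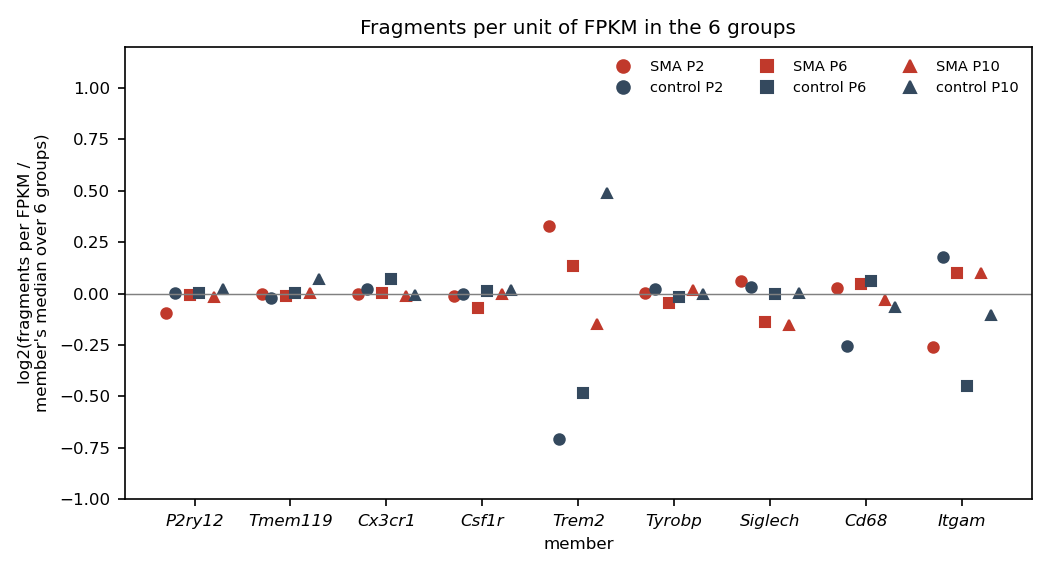
Estimated fragments per FPKM in each group, divided by the median of the gene's 6 groups and given as log2 (vertical axis), for the 9 microglia identity genes (horizontal axis); colour marks genotype and symbol marks age. Trem2 spreads the most, 2.31-fold from control at P2 to control at P10, Itgam spreads 1.54-fold, and the other 7 genes stay within 1.24-fold.

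Cd68, a heavily glycosylated protein of the macrophage lysosome that rises with phagocytic activity, lies on the minus strand of chromosome 11 at 69664213 to 69666153 (ENSMUSG00000018774.13). It had 2.58, 1.59 and 1.95 FPKM in the groups labelled SMA at P2, P6 and P10, against 2.38, 2.03 and 2.22 FPKM in control. It was also the member with the fewest fragments, 14.1 to 22.5 per group, and its intervals overlapped throughout.

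Itgam encodes CD11b, the alpha chain of complement receptor 3, with which microglia bind complement-tagged synapses and debris. The gene lies on the plus strand of chromosome 7 at 128062640 to 128118491 (ENSMUSG00000030786.18). The joined locus had 2.21, 1.53 and 1.83 FPKM in the groups labelled SMA at P2, P6 and P10, against 0.882, 2.15 and 2.29 FPKM in control. Its fragments were 69.3, 61.9 and 73.9 in the groups labelled SMA and 37.6, 59.4 and 80.0 in control. Control at P2 was lowest by either quantity, with intervals that reached 0 in all groups.

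The order of the 9 genes by FPKM was not resolved between neighbours in any group, since neighbouring intervals always overlapped. Of the 36 pairs of members, 2, 5 and 0 had separate intervals in the groups labelled SMA at P2, P6 and P10, against 3, 0 and 2 in control. These were Tyrobp above members at low level, and in control at P10 also Csf1r above Trem2. The members' intervals were wide: the upper bound lay above the FPKM by a median, in each group, of 77.9% to 101% of that FPKM for the 9 genes, against 72.5% to 74.8% for all loci at 1 FPKM or more.

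At P2 the group labelled SMA had the higher value for 8 of the 9 identity genes, with a median log2 ratio of 0.42, but no gene passed the test. Over 19114 features tested at this age 49% were higher, the median was -0.01, and 0.126% were called by a z test on the deposited intervals with Benjamini-Hochberg adjustment. The log2 ratio of Itgam was 1.33 ± 1.81 (SE) from FPKM and 0.88 from fragments, and that of Tmem119 0.92 ± 0.66 and 0.94, so that their order turned. Other positive values were Siglech at 0.72 ± 0.90 and Cx3cr1 at 0.45 ± 1.04. Csf1r (0.42 ± 0.69), P2ry12 (0.40 ± 1.57), Cd68 (0.12 ± 0.99) and Tyrobp (0.01 ± 0.64) were nearer to 0, and Trem2 was lower in the group labelled SMA (-0.84 ± 1.31). All 9 adjusted p-values of the z test were 1, and the smallest unadjusted one was 0.163, for Tmem119. No member had separate intervals, against 0.23% of all features. None reached an unadjusted p under 0.05 from FPKM, against 0.743% of all features, or from fragments, where 184 features did. With so few features at that level, its absence does not set the members apart. The errors limit what could be seen: the smallest test statistic called at P2 was 4.01, which would have taken a 5.94-fold difference in Tyrobp, 6.25-fold in Tmem119, 6.77-fold in Csf1r and 78.3-fold in P2ry12.

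Markers of other cells also had higher values at P2. The group labelled SMA was higher for all 11 tested oligodendrocyte genes, with a median log2 ratio of 3.71, and 6 of them (Mag, Mal, Cldn11, Ermn, Ugt8a and Fa2h) passed the z test. All 8 astrocyte genes (median 1.06) and all 8 endothelial genes (median 0.53) were also higher, with none called. Astrocyte genes summed to 708 FPKM in the group labelled SMA and 390 FPKM in control, and endothelial genes to 57.3 and 43.0 FPKM. The sum of the 9 identity genes was 48.3 FPKM in the group labelled SMA and 38.8 FPKM in control. Border macrophage genes lay the other way, with 1 of 5 higher, a median of -0.28, and sums of 19.5 FPKM in the group labelled SMA and 22.6 FPKM in control. The part of these cell types in the P2 differences of the identity genes was not tested.

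At P6, the age at which the myelin sums were closest, 3 of the 9 identity genes were higher in SMA, with a median log2 ratio of -0.10. From fragments the count was 5 of 9 and the median 0.02. Of 19631 features 60.1% were higher, with a median of 0.07, and 0.0458% were called, none of them a member. Tyrobp had the largest positive value, 0.56 ± 0.67, with Cx3cr1 at 0.22 ± 0.93 and Csf1r at 0.10 ± 0.67. Siglech (-0.08 ± 0.77), P2ry12 (-0.10 ± 1.40), Tmem119 (-0.12 ± 0.67), Cd68 (-0.35 ± 0.97), Itgam (-0.49 ± 1.83) and Trem2 (-0.54 ± 1.44) were below 0. Again all adjusted p-values of the z test were 1, and the smallest unadjusted one was 0.402. Only 0.168% of all features had an unadjusted p under 0.05 here, so large p-values do not show that a gene is unchanged. No member had separate intervals (0.117% of all features did).

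At P10 the group labelled SMA was higher for 5 of the 9 genes, with a median of 0.01, against 55.6% of 20157 features and a median of 0.04. From fragments it was higher for 3 of 9, with a median of -0.02. None was called, against 0.0397% of all features, and none had separate intervals, against 0.0794%. Trem2 (1.16 ± 1.29, and 0.52 from fragments) was the highest and Tmem119 (-0.59 ± 0.63) the lowest. Siglech (0.13 ± 0.83), Tyrobp (0.06 ± 0.66), P2ry12 (0.02 ± 1.45) and Cx3cr1 (0.01 ± 0.88) were close to 0. Cd68 (-0.19 ± 1.06), Csf1r (-0.24 ± 0.64) and Itgam (-0.32 ± 1.33) were slightly below it. The smallest unadjusted p of the z test was 0.352, and every adjusted p was 1. Endothelial genes (0 of 8 higher, median -0.49) and oligodendrocyte genes (0 of 11 higher, median -0.77) were lower in this group, and none of them was called. Smn1 at 2.82 FPKM in this group leaves the meaning of its label uncertain.

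**Figure D3:**
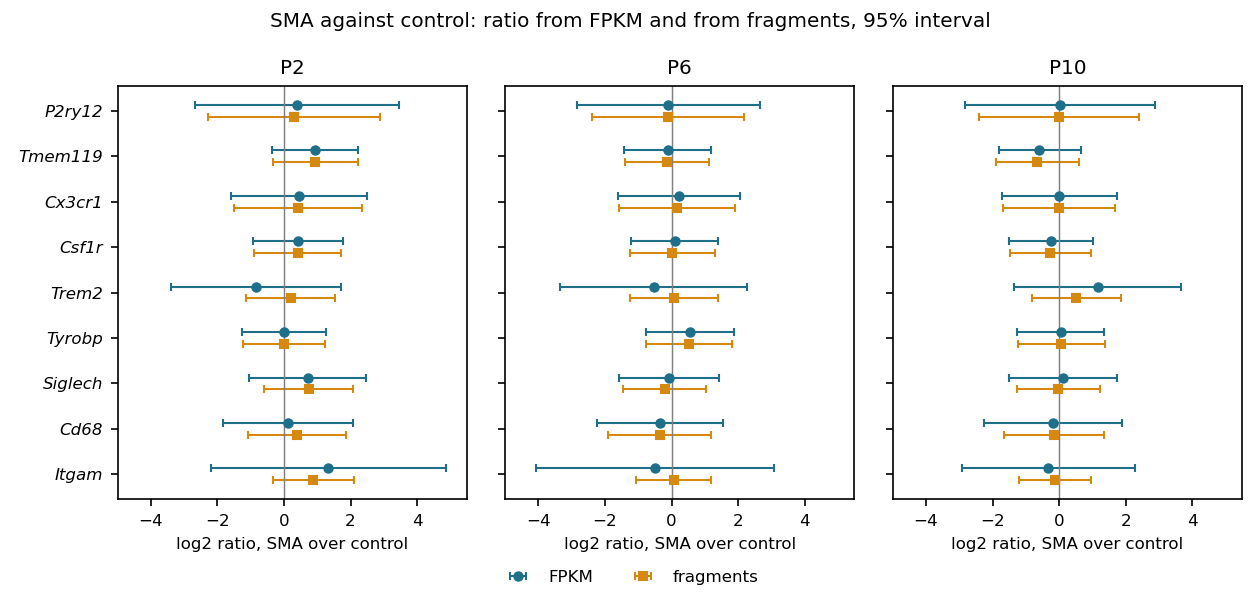
Log2 ratio of SMA over control (horizontal axis) for each microglia identity gene at P2, P6 and P10, from FPKM (circles) and from estimated fragments (squares), with 95% intervals. Every interval includes 0, and Trem2 at P2 and P6 lies on opposite sides of 0 by the 2 quantities.

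Across the 3 ages, a limma model with age as a factor gave a median genotype difference of 0.08 for the 9 genes on the log2(FPKM + 1) scale, with 7 of 9 above 0. None was called, against 0.00455% of 21960 features, and none had an unadjusted p under 0.05 by limma, which 451 of these features had. Tyrobp (0.19 ± 0.13) and Cx3cr1 (0.19 ± 0.11) were higher by FPKM in the groups labelled SMA at all 3 ages, with an adjusted p of 0.999 for each by limma. The margin was close to none for Tyrobp at P2 (log2 ratio 0.01, and -0.01 from fragments) and for Cx3cr1 at P10 (0.01 by either quantity). The share of all features higher at all 3 ages was not counted. The values of P2ry12, Tmem119, Csf1r, Siglech and Itgam were 0.10, 0.04, 0.08, 0.16 and 0.08, and those of Trem2 and Cd68 were -0.08 and -0.09. Without the P2 groups, 4 of the positive values turned negative (Csf1r -0.06, Itgam -0.26, P2ry12 -0.04 and Tmem119 -0.24) and that of Trem2 became 0.16. Without the P10 groups no sign changed.

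With age, control cords at P10 had higher values than at P2 for 6 of the 9 genes, with a median log2 ratio of 0.46. Among 19956 features 51.8% were higher, the median was 0.02, and 0.631% were called; no member was called or had separate intervals, which 1.36% of features had. The log2 ratios of P10 over P2 in control were 1.37 ± 1.76 for Itgam, 0.85 ± 0.65 for Tmem119, 0.74 ± 0.93 for Siglech, 0.56 ± 0.92 for Cx3cr1, 0.46 ± 1.51 for P2ry12 and 0.42 ± 0.67 for Csf1r. Cd68 (-0.10 ± 1.08), Tyrobp (-0.39 ± 0.65) and Trem2 (-1.46 ± 1.14) were lower at P10. The value of Trem2 from fragments was -0.25. The smallest unadjusted p was 0.192, and each adjusted p of the z test was 1. Oligodendrocyte genes over the same interval had a median of 4.82, with 10 of 11 called.

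The interval was also split at P6. Control at P6 over P2 had a median of 0.27 with 6 of 9 higher, and P10 over P6 a median of 0.09 with 7 of 9 higher. No member was called in either, against 0.112% and 0.0751% of features. In the groups labelled SMA, P10 over P2 had a median of -0.25 with 4 of 9 higher, beside 0.05 and 56.7% over 19938 features, of which 0.0602% were called. Tmem119 (-0.66 ± 0.64), Cd68 (-0.41 ± 0.97), Tyrobp (-0.34 ± 0.65), Itgam (-0.27 ± 1.39) and Csf1r (-0.25 ± 0.66) were lower at P10, and P2ry12 (0.09 ± 1.51), Cx3cr1 (0.12 ± 1.01), Siglech (0.15 ± 0.79) and Trem2 (0.54 ± 1.44) higher. None was called.

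The change from P2 to P10 was itself compared between the genotypes. It was smaller in the groups labelled SMA than in control for 7 of the 9 genes, with a median difference of -0.44, against 0.05 over 20916 features, of which 54.3% lay above 0. Tmem119 differed by -1.51 ± 0.91 (unadjusted p = 0.0985, adjusted p = 1 by the z test), Itgam by -1.65 ± 2.24 (-1.0 from fragments) and Trem2 by 2.0 ± 1.84 (0.32 from fragments). None of the 9 was called, against 0.0574% of features. The same difference had a median of -4.52 over 11 oligodendrocyte genes (0 above 0 and 4 called), -1.39 over 8 astrocyte genes (1 above 0) and -1.02 over 8 endothelial genes (0 above 0), the last 2 lists with no call. The part of these cell types was not tested. These comparisons share the P2 groups with those above and do not add to them.

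Control at P2 was the lowest of the 6 groups for 6 of the 9 genes (P2ry12, Tmem119, Cx3cr1, Csf1r, Siglech and Itgam), from FPKM and from fragments alike. The same group was lowest for 23.5% of 21436 loci. The mean of the standardized log2(FPKM + 1) values of the 9 genes was 0.63, -0.07 and 0.08 in the groups labelled SMA at P2, P6 and P10, against -0.96, 0.02 and 0.30 in control. Those 6 genes followed the mean with Pearson r of 0.80 to 0.93 over the 6 group values, Cd68 with 0.09, Tyrobp with -0.24 and Trem2 with -0.69. The mean contains each gene that is set against it, and the profile of Trem2 depends on the use of FPKM.

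The genes outside the list whose profile was most like the mean, among 3665 candidates that varied over the 6 group values, were Lama5, Chst8, Axl, Epo, Cyp2d22, Pex7, Scrn3, Tmem203, P2rx7 and Rtkn, with r of 0.929 to 0.979. Axl, a receptor for the bridging protein GAS6 that binds dying cells, had 11.9, 8.95 and 10.6 FPKM in the groups labelled SMA at P2, P6 and P10, against 7.30, 10.3 and 11.2 FPKM in control. P2rx7, an ATP-gated channel, had 3.21, 2.91 and 2.96 FPKM against 1.89, 2.99 and 3.51 FPKM. The profile of P2ry12 alone was most like those of Xylt1, Stx4a, Trhr2, P2rx5 and Dlg1 (r of 0.956 to 0.977). Median r with the mean profile was 0.87 over 11 oligodendrocyte genes, 0.82 over 8 astrocyte genes and 0.75 over 7 endothelial genes, 0.56 over 7 other microglia-enriched genes and -0.36 over 5 border macrophage genes. All candidates had a median of 0.18. These correlations rest on the same 6 group values, of which the P2 pair are the most distant.

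Of the other microglia-enriched genes, 9 of 12 tested were higher in the group labelled SMA at P2 (median 0.33), 6 of 12 at P6 (median -0.00) and 3 of 12 at P10 (median -0.16). None passed the test at any age. Selplg, the selectin ligand of leukocytes and microglia, had 1.69, 2.27 and 2.74 FPKM in the groups labelled SMA at P2, P6 and P10, against 0.829, 1.83 and 3.31 FPKM in control. In control cords 10 of 13 were higher at P10 than at P2 (median 0.37), and none was called.

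The next list holds ligands of the members' receptors together with niche signals such as Tgfbr1, Tgfbr2 and Nrros, which are not ligands; Csf1 is also in the list of activated microglia. Il34, which neurons make, had 2.90, 2.93 and 3.97 FPKM in the groups labelled SMA at P2, P6 and P10, against 1.55, 2.50 and 5.26 FPKM in control. Its log2 ratio at P2 was 0.90 ± 3.98, so these values do not resolve a difference. Csf1, the other ligand of CSF1R, had 6.31, 4.60 and 5.96 FPKM against 3.05, 3.98 and 7.49 FPKM in control. Cx3cl1, the ligand of CX3CR1, had 26.1, 31.0 and 29.9 FPKM against 25.0, 29.4 and 33.7 FPKM in control. Apoe, a lipoprotein that TREM2 binds and that astrocytes mostly make, had 651, 764 and 612 FPKM against 431, 637 and 770 FPKM in control. Over the list, the group labelled SMA was higher for 7 of 8 tested genes at P2 (median 0.42), 7 of 9 at P6 (0.21) and 2 of 9 at P10 (-0.17), with none called.

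Downstream of DAP12 and Fc receptors, the group labelled SMA was higher for 5 of 6 tested genes at P2 (median 0.20), 4 of 6 at P6 (0.13) and 1 of 6 at P10 (-0.19). Syk, the kinase that DAP12 recruits, was under 1 FPKM in every group. Fcer1g, the Fc receptor gamma chain, had 2.17, 1.48 and 2.15 FPKM in the groups labelled SMA and 1.93, 2.30 and 2.17 FPKM in control. Inpp5d, the lipid phosphatase that dampens this pathway, had 2.48, 2.83 and 1.70 FPKM in the groups labelled SMA, against 1.77, 1.66 and 2.32 FPKM in control. No gene of this list was called.

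Integrin and phagocytic partners were higher in the group labelled SMA for 7 of 7 tested genes at P2 (median 0.28), 5 of 8 at P6 (0.01) and 2 of 8 at P10 (-0.20), none called. Below the level tested at P2, Ptprc (0.690 against 0.790 FPKM in control) and Cd14 (0.350 against 0.480 FPKM) were lower. Itgb2, Itgax, Tlr2, Tlr4 and Cd84, also below it, were higher. The tested genes include Itgb1, at 31.5 to 47.0 FPKM, and which cells gave their RNA was not tested. Itgb2, the partner chain of Itgam in complement receptor 3, was at 0.414 to 0.651 FPKM and below the level tested. Mertk, a receptor for dying cells, had 3.30, 3.47 and 3.13 FPKM in the groups labelled SMA at P2, P6 and P10, against 2.04, 2.63 and 3.00 FPKM in control. Lysosomal genes, which most cells express, were higher for 8 of 8 at P2 (median 0.25), 8 of 8 at P6 (0.15) and 0 of 8 at P10 (-0.19), again with no call. Lamp1 had 108, 115 and 110 FPKM in the groups labelled SMA and 83.4, 97.4 and 130 FPKM in control.

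The myeloid transcription factors had medians of -0.14, -0.06 and 0.06 for SMA over control at P2, P6 and P10, with 3 of 8, 2 of 7 and 4 of 6 tested genes higher and none called. The most abundant of the list were Mef2a, Mef2c and Maf, with means of 27.7, 11.7 and 8.66 FPKM over the groups. Which cells of the cord gave their RNA was not tested, so the medians need not describe myeloid cells. Spi1, which encodes PU.1, had 1.15, 1.05 and 1.02 FPKM in the groups labelled SMA, against 0.902, 0.925 and 1.40 FPKM in control. Irf8, its partner in microglial development, had 0.700, 1.34 and 0.923 FPKM against 1.08, 0.937 and 0.971 FPKM in control. The error of its log2 ratio at P2 was so wide (-0.63 ± 29.59) that the values do not resolve a difference. Runx1 had the largest log2 ratio of the list at P2, 1.62 ± 2.04, with 1.57 FPKM in the group labelled SMA and 0.510 FPKM in control.

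**Figure D4:**
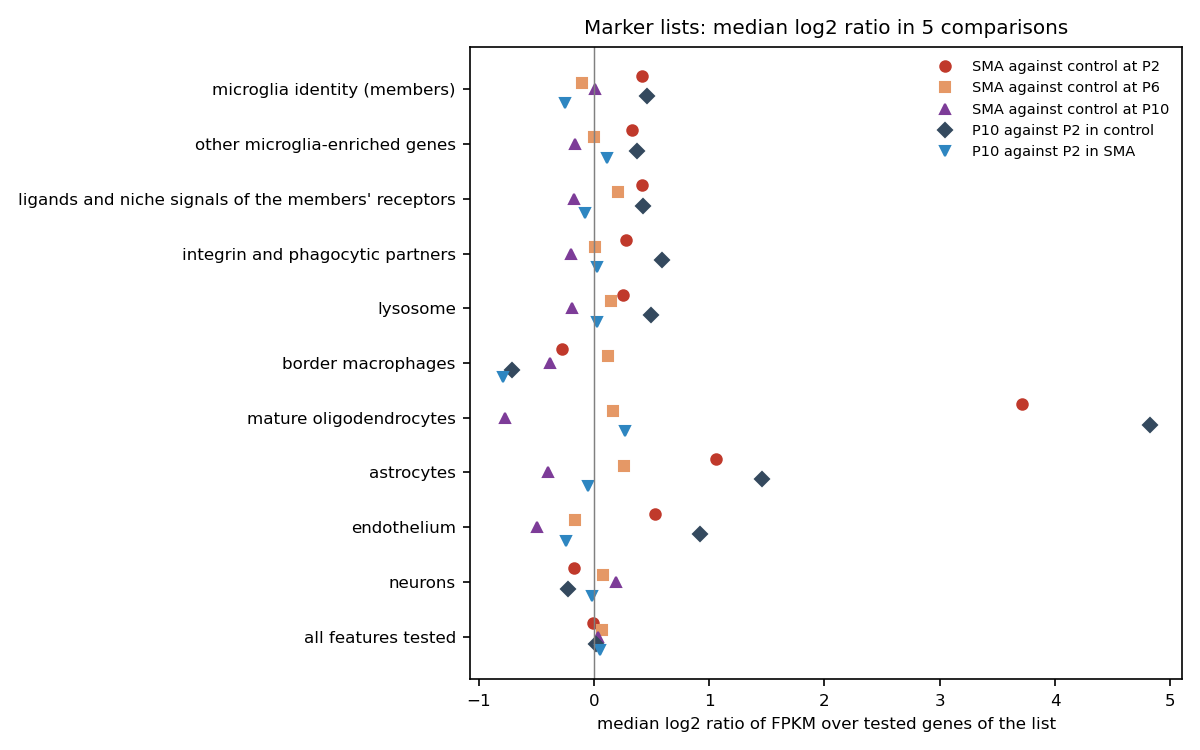
Median log2 ratio of FPKM over the tested genes of selected marker lists (rows) in 5 comparisons (symbols), with all features tested in the bottom row. Not drawn are the lists of myeloid transcription factors, DAP12 and Fc receptor signalling, activated microglia, monocytes and neutrophils, lymphocytes, proliferation and red cells. The microglia identity genes lie at 0.42 for SMA over control at P2 and 0.46 for P10 over P2 in control, where the oligodendrocyte list lies at 3.71 and 4.82.

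Border macrophage genes, which mark the macrophages of the meninges and vessels, mostly had lower values at P10 than at P2 in both genotypes. Their sum was 19.5, 21.7 and 11.8 FPKM in the groups labelled SMA at P2, P6 and P10, against 22.6, 21.2 and 15.3 FPKM in control. Lyve1, the hyaluronan receptor of perivascular and meningeal macrophages, had 2.29, 2.32 and 0.577 FPKM in the groups labelled SMA and 2.50, 2.16 and 0.926 FPKM in control. The median log2 ratio of P10 over P2 was -0.79 in the groups labelled SMA and -0.71 in control over 5 genes, of which 0 and 1 were higher. No gene of this list was called, and 1 had an unadjusted p under 0.05 in control, as did 3.51% of all features tested there. The sum of the 9 identity genes was 48.3, 45.8 and 45.4 FPKM in the groups labelled SMA and 38.8, 44.0 and 46.1 FPKM in control; whether border macrophages add to Csf1r, Cx3cr1, Tyrobp, Trem2, Cd68 and Itgam here was not tested.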

How the data were processed

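Per the submitters' processing notes, the authors' tools were FastQC, Cuffdiff, Cufflinks 2.2.1, Picard, TopHat2 2.1.1 and Bowtie2 2.2.4, and the build GRCm38. The annotation release, strand setting and normalization are not given in the sources used here. The library kit is stranded and removes ribosomal RNA, per the labels. The deposited tables hold 1 FPKM value per locus and group with a model interval, and expected counts (estimated fragments) with a model variance. Neither holds values per library, so edgeR was not used. The p-values of the z test measure only the authors' model spread. Those of the limma model measure how the genotype difference of the group values varies between ages, with ages in the place of replicates. Neither measures the spread between libraries.

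Genotypes were compared at each age, and P6 over P2, P10 over P6 and P10 over P2 in control and P10 over P2 in SMA, by a z test (two-sided) on log2 FPKM ratios; the standard error was the relative distance of the upper bound over 1.96. It ran over features at 1 FPKM or more in a compared group, above 0 in each and with status OK. Adjustment was Benjamini-Hochberg over all features tested, with a call at an adjusted p under 0.05. Over all features the test statistic had a robust standard deviation of 0.27, 0.262 and 0.294 for SMA over control at P2, P6 and P10. This is far narrower than the z test assumes, so its p-values run high and a large one is no evidence of equal levels. The model across ages (R 4.3.3, limma 3.58.1) took log2(FPKM + 1), with age as a factor and 2 residual degrees of freedom. Alternatives were fragments in place of FPKM, narrower intervals, other minimum levels and pseudocounts, separate intervals, and leaving out an age. Gene positions come from GENCODE M21. Other steps ran in Python 3.11.15 with scipy 1.17.1, numpy 2.4.6, matplotlib 3.10.9 and pandas 2.3.3.

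The members and lists were chosen with earlier results of these data known. All 9 members are named; of the other lists, called genes, or up to 4 genes chosen by level and by log2 ratio, are eligible, and other list genes named were chosen after their values were seen. The 10 genes closest in profile to the members, and 5 to P2ry12, were taken among protein-coding genes whose range was at least 0.5 on the log2 scale. Joined loci of list genes were left out. Some list genes enter the counts but are not reported here.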

Additional observations from a re-analysis of the deposited data

How the results depend on the processing

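None of the 9 identity genes was called in any comparison under any alternative (369 values). Settings that change only the interval or the minimum level leave a log2 ratio as it is, so no sign could change there. Under the other settings 18 values changed sign. Of these, 11 came from fragments in the z test, where 61 kept their sign. Across ages, 5 changed without P2, where 4 kept their sign, 1 without P6 and 1 from fragments. Counts over all features moved. Reading the deposited interval as that of 1 library gave 123, 26 and 22 calls for SMA over control at P2, P6 and P10, against 24, 9 and 8 as reported. For P6 over P2, P10 over P6 and P10 over P2 in control it gave 98, 207 and 920 (22, 15 and 126 as reported), for P10 over P2 in SMA 44 (12) and for the genotype difference in that change 163 (12). Separate intervals gave 44, 23 and 16 at P2, P6 and P10, then 54, 55 and 272 in control and 22 in SMA, in the same order. From fragments the z test called 0 features at P6 and 0 at P10, with 8 and 29 at an unadjusted p under 0.05, then 12 for P6 over P2 and 216 for P10 over P2 in control, 2 for P10 over P2 in SMA and 23 for the difference in change. A minimum of 5 FPKM gave 20 for that difference. The limma model called 1 feature, 15 without P6, 12 without P2, 6 without P10, and 0 from fragments, with a minimum of 5 FPKM or with none (308, 173 and 1319 at an unadjusted p under 0.05).

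From fragments, the log2 ratios of SMA over control that changed sign were those of Trem2 (0.20 at P2, 0.07 at P6), Tyrobp (-0.01 at P2), Itgam (0.06 at P6), P2ry12 (-0.01 at P10) and Siglech (-0.02 at P10). Over age they were Cd68 (0.09 for P10 and 0.08 for P6 over P2 in control), Trem2 (0.09 for P6 over P2 in control), and Itgam (0.09) and Siglech (-0.06) for P10 over P2 in SMA. Across ages, Trem2 was 0.26 from fragments and 0.06 without P6. Without P2, Csf1r was -0.06, Itgam -0.26, P2ry12 -0.04, Tmem119 -0.24 and Trem2 0.16. The cause of these changes was not tested.

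No paired analysis was possible because the deposited columns hold 1 value per group and carry no replicate. Leaving out single libraries could not be run for the same reason. Depth limits these genes: Cd68 rested on 14.1 to 22.5 estimated fragments per group and Trem2 on 22.5 to 32.2.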

Other observations

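Activated and neutrophil genes belonged to no comparison of the identity genes. Of the 12 genes of axon tract and activated microglia, 10 had a locus of their own, and 4 of these (Igf1, Lpl, Cd9 and Csf1) reached the level tested. Spp1 and Cst7 lie in joined loci and were left out whatever their level. Clec7a (0.0459 to 0.549 FPKM), Itgax, Gpnmb and Ccl4 stayed under 1 FPKM in all groups. Their tested members were higher in the group labelled SMA for 3 of 4 genes at P2 (median 0.50), 4 of 4 at P6 (0.17) and 2 of 4 at P10 (-0.15), with none called. Igf1, a growth factor for myelinating cells, had 6.96, 9.38 and 7.99 FPKM in the groups labelled SMA at P2, P6 and P10, against 9.14, 8.69 and 7.85 FPKM in control. S100a8, a calcium-binding protein of neutrophils, had 2.78, 4.55 and 3.02 FPKM in the groups labelled SMA, against 2.04, 3.58 and 1.82 FPKM in control. Its partner S100a9 had 4.21, 4.18 and 2.33 FPKM against 2.23, 2.96 and 1.86 FPKM. Both were higher in the groups labelled SMA at all 3 ages, and neither was called. The list, which includes Fn1, had 4 of 4, 2 of 3 and 2 of 3 tested genes higher. Its genes below the level tested were mixed. Ltf (0.357 against 0.754 FPKM in control) and Mpo (0.0822 against 0.330 FPKM) were lower at P10, as were Elane at P6 and P10 and Camp at P2. Ngp was higher at all 3 ages.

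Neuronal genes had medians of -0.17, 0.08 and 0.19 for SMA over control at P2, P6 and P10. Proliferation genes had -0.32, -0.11 and 0.02, and red cell genes -0.59, -0.20 and -0.67. None of these was called.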
